A study of Mus musculus with 9 samples.

Results

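Transcripts of 4 genes of the polyol pathway and of fructose metabolism, Akr1b3, Sord, Khk and Slc2a5, were followed in sorted proximal tubular epithelia of 9 mice. The genes were chosen by symbol: Akr1b3 encodes aldose reductase, Sord sorbitol dehydrogenase, Khk ketohexokinase and Slc2a5 the fructose transporter GLUT5. All 4 were found among the 24421 genes of the deposited table.

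In the polyol pathway, aldose reductase reduces glucose to sorbitol with NADPH, and sorbitol dehydrogenase oxidizes sorbitol to fructose with NAD+. Fructose made in this way, or taken up from filtrate and blood through GLUT5 and related carriers, is phosphorylated by ketohexokinase and then broken down to trioses, a route in which triokinase takes part. The proximal tubule is the main site of fructose metabolism in the kidney, whereas in the renal medulla aldose reductase is known for making sorbitol as an osmolyte.

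The 3 groups comprised 3 mice each. The db/db mouse lacks a functional leptin receptor and becomes obese and hyperglycemic, and the heterozygous db/m mouse served as the non-diabetic control. The db/db-dapa mice were db/db mice that drank 1.5 mg/kg/day of dapagliflozin, an inhibitor of the glucose transporter SGLT2, for 8 weeks, whereas db/db mice received vehicle. All mice, controls included, were of C57BL/6 strain and carried the SLC34a1GCE and R26tdTomato alleles, and all were injected with tamoxifen at 8 weeks of age. Since Cre is driven by the Slc34a1 locus, tdTomato marks proximal tubular cells that expressed Slc34a1 at the time of tamoxifen. The age at collection was not given in the sources used here.

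Levels are given in CPM, the estimated read counts of a gene scaled to a common library total with TMM factors. The libraries held between 2733349 counts (db/db replicate 1) and 9033123 counts (db/db-dapa replicate 3), and 3 counts corresponded to between 0.339 and 1.02 CPM. Of all genes, 15583 reached 0.3 CPM in at least 2 mice and were tested with edgeR's quasi-likelihood test on the 9 mice together. Calls required a log2 fold change beyond 1 in either direction together with an adjusted p below 0.1. The db/db mouse of replicate 3 stood apart in several of the genes below, and values that rest on it are also given without it. The sorted cells carried the defining transcripts of the proximal tubule. The summed level of 8 such markers was 12163 to 19695 CPM, and Slc34a1 alone reached 3819 ± 312 CPM in db/m mice (SD, n = 3). Transcripts of other segments were also found. Markers of the thick ascending limb summed to 308 to 1513 CPM and those of the principal cell to 133 to 698 CPM, both highest in db/m replicate 3. In sorted cell pools, a change in the mix of cells and a change of RNA per cell cannot be told apart.

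Akr1b3 was lower in both diabetic groups than in db/m mice. In db/m mice it was found at 51.3, 37.7 and 62.6 CPM, in db/db mice at 17.0, 20.6 and 16.5 CPM, and in db/db-dapa mice at 28.4, 20.0 and 24.0 CPM. All db/db mice and all db/db-dapa mice lay below all db/m mice, whereas the diabetic groups overlapped each other. For db/db versus db/m Akr1b3 fell by 1.48 on the log2 scale (standard error 0.23, adjusted p = 0.0132 by edgeR's quasi-likelihood test), a 2.79-fold lower level. For db/db-dapa versus db/m it fell by 1.07 on the log2 scale (standard error 0.22, adjusted p = 0.0627 by edgeR's quasi-likelihood test), a 2.09-fold lower level. Both comparisons share the db/m mice. Akr1b3 was thus called in both, and it was the only one of the 4 genes that was. Of all genes tested, 1.24% were called for db/db versus db/m (0.699% lower) and 1.05% for db/db-dapa versus db/m (0.475% lower). Groups that did not overlap, with the diabetic group lower, were found for 8.13% and 13.7% of all genes. The call in db/db-dapa mice was lost without db/m replicate 1 or 3, and without db/db-dapa replicate 2 or 3, with log2 fold changes from -1.06 to -0.89 and adjusted p from 0.214 to 0.364 (edgeR's quasi-likelihood test). Exact two-sided permutation tests of 3 against 3 mice gave p = 0.1 for both, the smallest p such a design allows.

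**Figure D1:**
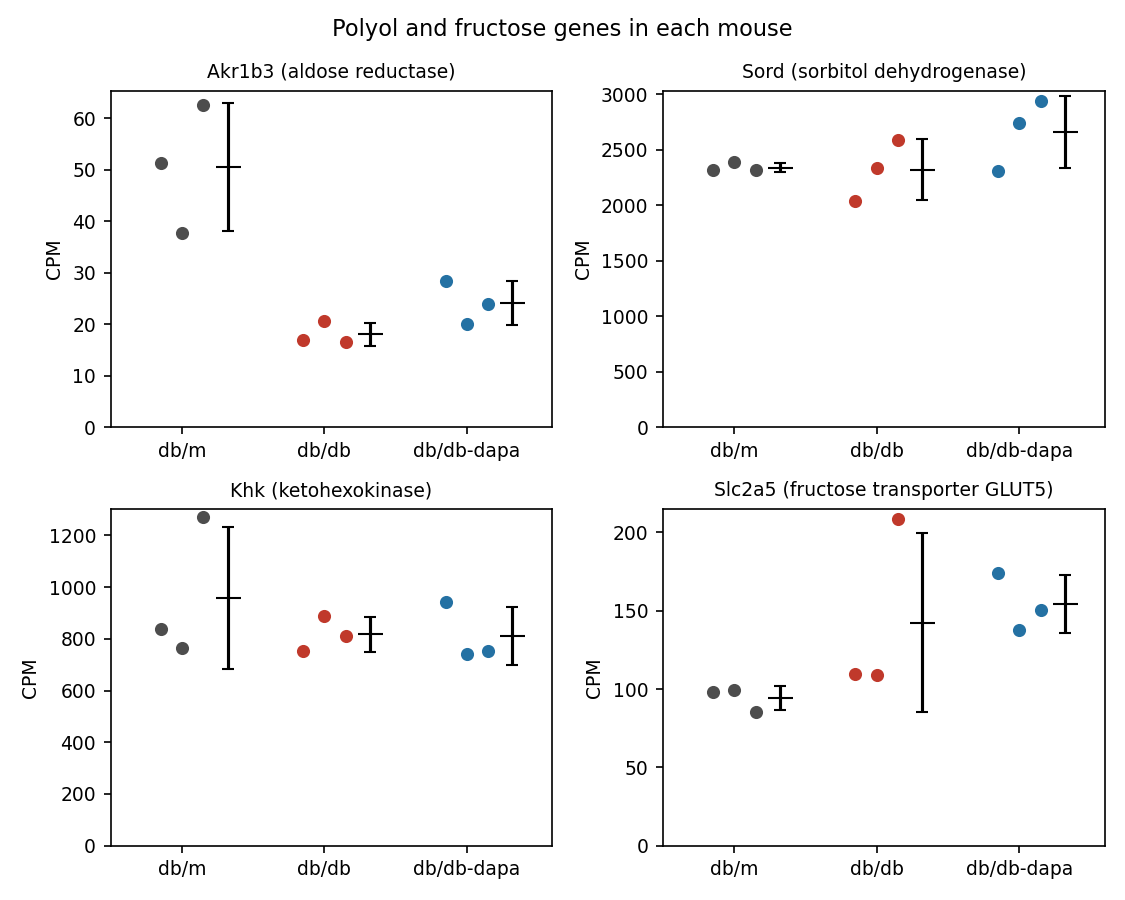
Levels of Akr1b3, Sord, Khk and Slc2a5 in CPM (vertical axes, from 0) in each of the 9 mice (points, by group), with the mean and SD of the 3 mice beside them. For Akr1b3, the db/db mice (16.5 to 20.6 CPM) and the db/db-dapa mice (20.0 to 28.4 CPM) lie below the db/m mice (37.7 to 62.6 CPM), while the groups overlap for Sord and Khk.

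Reads of Akr1b3 are shared with near copies elsewhere in the genome. The gene spans bases 34302434 to 34317478 of chromosome 6 (GRCm38, the build also named mm10) on the minus strand, with 10 exons in its longest coding transcript of 1387 bases. A processed pseudogene, Gm6644, on chromosome 1 from 55444074 to 55445024, matches the coding part of Akr1b3 over 951 bases with 3 mismatches (99.7% identity). In the deposited table, Gm6644 holds the same value as Akr1b3 in all 9 mice, and 5 of the 9 values are not whole numbers. The pair below is printed because it shows 1 of the few bases by which a read could tell the copies apart. It is the exonic coding stretch of 60 bases around 1 of the mismatches, 5′ to 3′ on the minus strand of both genes, with the mismatched base in capitals and the rest in lower case. Akr1b3 is read from exon 6, chr6:34309961-34310020, and Gm6644 from its single exon, chr1:55444366-55444425.
Akr1b3: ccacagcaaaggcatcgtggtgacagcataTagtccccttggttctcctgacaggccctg
Gm6644: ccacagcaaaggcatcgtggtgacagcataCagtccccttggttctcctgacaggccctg

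The Akr1b3 transcript holds 1287 windows of 101 bases (the read length), of which 851 lie wholly within the stretch that aligns with Gm6644. Of these 851, 555 were identical and the others differed at 1 or 2 bases. The further near copies Gm12138, Gm38056 and Gm6736, which were not analysed here, matched Akr1b3 at 99.1% to 99.7% identity. Gm38056 matched on the opposite strand, over 1352 bases or 97.5% of the Akr1b3 transcript. Since the rows of Akr1b3 and Gm6644 hold the same values, adding them leaves the fold changes where they are. An antisense gene, Gm14546, overlaps Akr1b3 on the other strand, and whether the counting used strand is not stated. The level of Akr1b3 is therefore uncertain, and which of the copies the reads came from was not tested.

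Sord, which oxidizes sorbitol, was much more abundant and nearly level across the groups. It lies on chromosome 2 from 122234749 to 122265340. In db/m mice it was found at 2317, 2388 and 2314 CPM, in db/db mice at 2037, 2339 and 2587 CPM, and in db/db-dapa mice at 2306, 2743 and 2941 CPM. The db/m mice lay close together and within the range of the db/db mice. The log2 fold change for db/db versus db/m was -0.01, with a 95% interval from -0.39 to 0.37 (adjusted p = 0.985 by edgeR's quasi-likelihood test). The value for db/db-dapa versus db/m was 0.19, with an interval from -0.20 to 0.57 (adjusted p = 0.565). Differences within these intervals were not excluded with 3 mice a group. A near copy, Gm6652, matches part of the Sord transcript.

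Khk, which phosphorylates fructose at the expense of ATP, was also found at similar levels in the 3 groups. It lies on chromosome 5 from 30921431 to 30931248, and the table gives 1 value for the 4 coding transcripts, so the A and C isoforms cannot be separated here. In db/m mice it was found at 839, 765 and 1273 CPM, in db/db mice at 753, 888 and 811 CPM, and in db/db-dapa mice at 941, 740 and 755 CPM. The groups overlapped, and only db/m replicate 3 stood above the others. The log2 fold change was -0.23 (95% interval -0.70 to 0.24) for db/db versus db/m and -0.24 (-0.71 to 0.23) for db/db-dapa versus db/m, with adjusted p = 0.673 and 0.544 (edgeR's quasi-likelihood test). When db/m replicate 3 was left out, the log2 fold changes of Khk were 0.019 and 0.011. That mouse also had the highest summed levels of thick ascending limb, distal convoluted tubule, principal cell and intercalated cell markers. The part of those cells in its level of Khk was not tested.

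The promoters of Khk and Slc2a5 are shown because genes that respond to sugars through the factor ChREBP are examined further on, and ChREBP binds pairs of E-box-like motifs. Each sequence holds the 250 bases before the start that RefSeq (GRCm38.p6) gives, which for both genes lies inside the span of the GENCODE annotation, 5′ to 3′ on the plus strand, with the palindromic E-box CACGTG in capitals. Khk is read from chr5:30921309-30921558 and Slc2a5 from chr4:150119094-150119343.
Khk: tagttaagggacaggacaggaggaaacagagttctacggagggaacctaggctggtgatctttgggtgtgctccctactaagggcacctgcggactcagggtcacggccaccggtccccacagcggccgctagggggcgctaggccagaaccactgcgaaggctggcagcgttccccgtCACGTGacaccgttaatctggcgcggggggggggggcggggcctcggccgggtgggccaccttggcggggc
Slc2a5: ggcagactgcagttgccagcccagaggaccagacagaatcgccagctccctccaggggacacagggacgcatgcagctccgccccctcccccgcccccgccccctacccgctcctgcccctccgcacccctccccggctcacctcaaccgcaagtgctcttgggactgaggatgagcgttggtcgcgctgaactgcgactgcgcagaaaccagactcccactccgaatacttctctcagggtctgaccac

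The motif reads the same on both strands. It occurs once in the window of Khk, starting 71 bases before the start that RefSeq gives, and not in the windows of Slc2a5 or Sord. Of 32851 promoters of this length, 6.02% hold it. A match is a description of the letters and not of binding.

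Slc2a5, whose product GLUT5 carries fructose and not glucose, was higher in each diabetic mouse than in each db/m mouse. It lies on chromosome 4 from 150119283 to 150144169. In db/m mice it was found at 98.0, 99.5 and 85.3 CPM, in db/db mice at 109, 109 and 209 CPM, and in db/db-dapa mice at 174, 138 and 151 CPM. In db/db mice, 2 values lay just above the highest db/m mouse, and replicate 3 stood apart. The log2 fold change was 0.60 for db/db versus db/m (standard error 0.25, 95% interval 0.06 to 1.14) and 0.71 for db/db-dapa versus db/m (standard error 0.25, 95% interval 0.17 to 1.25). Neither passed the test, with adjusted p = 0.313 and 0.207 (edgeR's quasi-likelihood test). Groups without overlap were common in these comparisons, at 16.4% and 28.1% of all genes tested (8.28% and 14.4% with the diabetic group higher). Without db/db replicate 3 the value for db/db versus db/m was 0.21. Slc2a5 passed an adjusted p under 0.1 for db/db-dapa versus db/m without that mouse (0.0292) and when only these 2 groups were fitted (0.0416), with log2 fold changes of 0.72 under both settings, which is below the size a call needs.

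Dapagliflozin did not detectably move any of the 4 genes in db/db mice. The log2 fold change of db/db-dapa against db/db mice was 0.42 for Akr1b3 (95% interval -0.07 to 0.91), 0.20 for Sord (-0.18 to 0.58), -0.01 for Khk (-0.48 to 0.46) and 0.11 for Slc2a5 (-0.43 to 0.65). The adjusted p was 0.854, 0.855, 0.997 and 0.941 in the same order (edgeR's quasi-likelihood test). The groups overlapped for all 4. In this comparison edgeR called 0 of the 15583 genes (0%), although 808 (5.19%) had an unadjusted p under 0.05. None of the 4 genes was among these, and limma and DESeq2 called none of the 4 either.

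**Figure D2:**
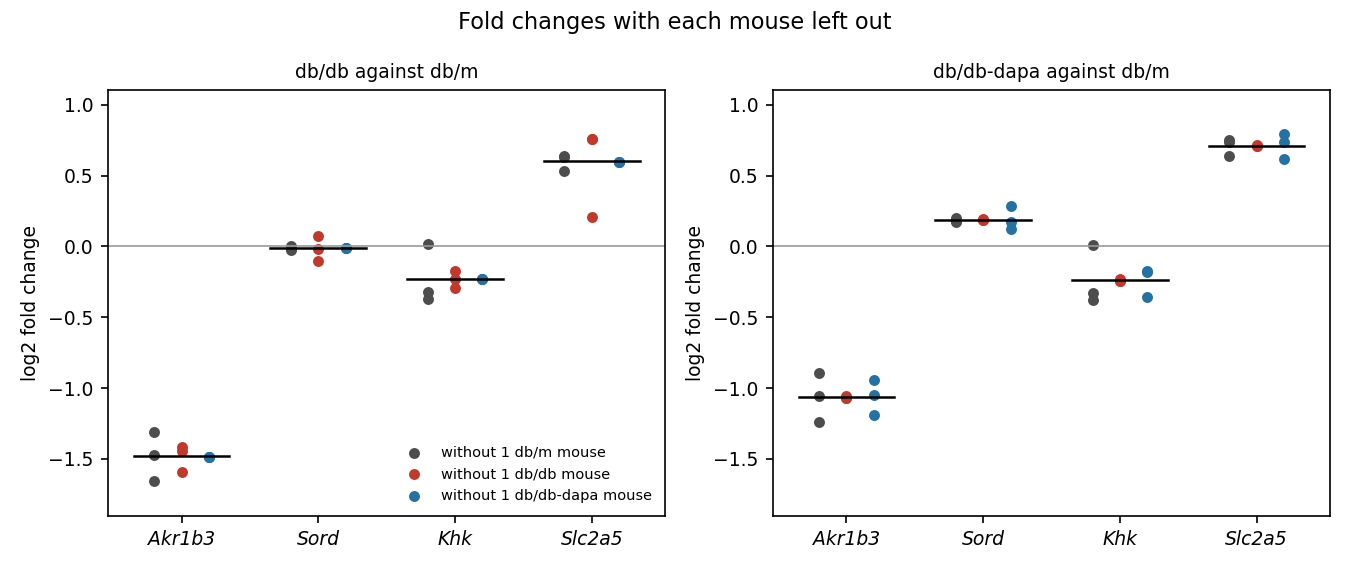
log2 fold changes (vertical axes) of Akr1b3, Sord, Khk and Slc2a5 against db/m mice with each of the 9 mice left out of the fit in turn (points, colored by the group of the mouse left out); black lines give the value with all mice. Akr1b3 stays between -1.66 and -1.31 in db/db mice, while Slc2a5 drops to 0.21 without db/db replicate 3.

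Divided by the length of the longest coding transcript, the members covered a wide range of levels. Sord was at 995 ± 17.7 CPM per kilobase in db/m mice (SD, n = 3), Khk at 606 ± 173, Slc2a5 at 29.8 ± 2.47 and Akr1b3 at a mean of 36.4 (27.2 to 45.1). The ranges of Akr1b3 and Slc2a5 overlapped in db/m mice. In db/db mice their order was turned, with Slc2a5 at 34.6 to 66.1 and Akr1b3 at 11.9 to 14.9 CPM per kilobase, and the ranges no longer overlapped. Per 100 transcripts of Sord on this scale there were 3.76, 2.68 and 4.59 of Akr1b3 in db/m mice, 1.41, 1.49 and 1.08 in db/db mice, and 2.09, 1.23 and 1.38 in db/db-dapa mice. Each diabetic mouse lay below each db/m mouse in this ratio. Values of Akr1b3 here rest on reads shared with Gm6644.

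**Figure D3:**
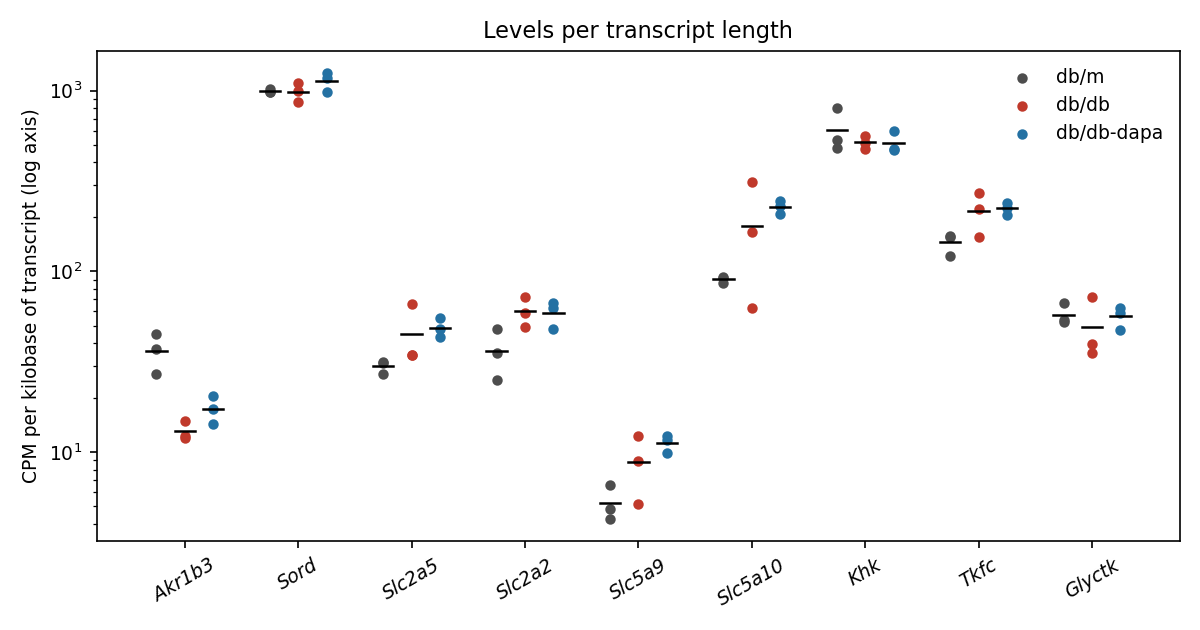
Levels in CPM per kilobase of transcript (logarithmic vertical axis) of genes of the polyol route, of fructose transport and of fructose breakdown in each mouse (points, colored by group; black lines are group means). Sord is highest at 987 to 1132 as group means and Slc5a9 lowest of the genes drawn, and Akr1b3 is lower in the diabetic groups.

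Of the other aldo-keto reductases, all had lower means in db/db than in db/m mice, and none passed the test with all mice. Akr1a1, an aldehyde reductase that was the most abundant gene of this list, was at 3558 CPM in db/m, 3059 in db/db mice and 3116 in db/db-dapa mice as means, with adjusted p = 0.619 for db/db against db/m mice (edgeR's quasi-likelihood test). Akr1b8, a relative of aldose reductase with few reads, had 15 to 25 counts in each db/m mouse and at most 8 in each diabetic mouse. Its adjusted p was 0.260 and 0.232 against db/m mice (edgeR's quasi-likelihood test). Over the 6 genes of the list, Akr1b3 and Sord included, only Akr1b3 was called lower in either diabetic group. Of all genes tested, 0.699% and 0.475% were called lower. The median log2 fold change was -0.95 in db/db mice and -0.71 in db/db-dapa mice, against 0.02 and -0.02 over all genes tested. In db/db mice the lowest values were those of Akr1b8 (-2.19) and Akr1b7 (-2.09), while Akr1a1 and Sord were at -0.22 and -0.01. Akr1b7, named after its values were seen, also had few reads (0.126 to 2.52 CPM).

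No gene of fructose breakdown passed edgeR's test in any comparison with all mice. Tkfc, the gene of triokinase, had log2 fold changes of 0.58 and 0.63 in db/db and db/db-dapa against db/m mice, with adjusted p = 0.263 and 0.201 (edgeR's quasi-likelihood test). Part of its transcript matches the opposite strand of Cyb561a3. With edgeR, 0 of the 7 genes of the list were called in any comparison, and 1, 2 and 0 had an unadjusted p under 0.05. The corresponding shares of all genes tested were 13.7%, 18.2% and 5.19%. The 2 genes for db/db-dapa versus db/m moved in opposite directions. limma called 0 of the 7 genes, as did DESeq2, which put Tkfc at an adjusted p under 0.1 in db/db-dapa mice.

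Transporters able to carry fructose had higher means in db/db mice for all 6 genes tested, Slc2a5 among them. Their median log2 fold change was 0.67 in db/db and 0.71 for db/db-dapa versus db/m. Without db/db replicate 3, the log2 fold changes of the 6 genes for db/db versus db/m ran from 0.0089 (Slc2a12) to 0.57 (Slc2a2). That of Slc2a8 rose from 0.094 to 0.24, and those of the other genes were smaller than with all mice. None was called by edgeR (0 of 6 in each comparison, with 4 at an unadjusted p under 0.05 against db/m mice in either group, where all genes had 13.7% and 18.2%). Slc5a10, which encodes the sodium-dependent fructose and mannose transporter SGLT5, was at 211, 208 and 195 CPM in db/m mice, 142, 372 and 701 in db/db mice, and 518, 472 and 553 in db/db-dapa mice. The db/db mice were widely spread, and the db/db-dapa mice lay together above all db/m mice. Its log2 fold change was 0.99 (standard error 0.41) and 1.33 (standard error 0.41) against db/m mice, with adjusted p = 0.316 and 0.172 (edgeR's quasi-likelihood test). The values of Slc5a10 when db/db replicate 3 was left out were 0.33 and 1.34, with adjusted p = 0.720 and 0.0283, so that it was called in db/db-dapa mice. DESeq2 called Slc5a10 and Slc5a9 higher in db/db-dapa mice, and limma called none of the 6. Part of the Slc5a10 transcript matches the opposite strand of Fam83g.

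**Figure D4:**
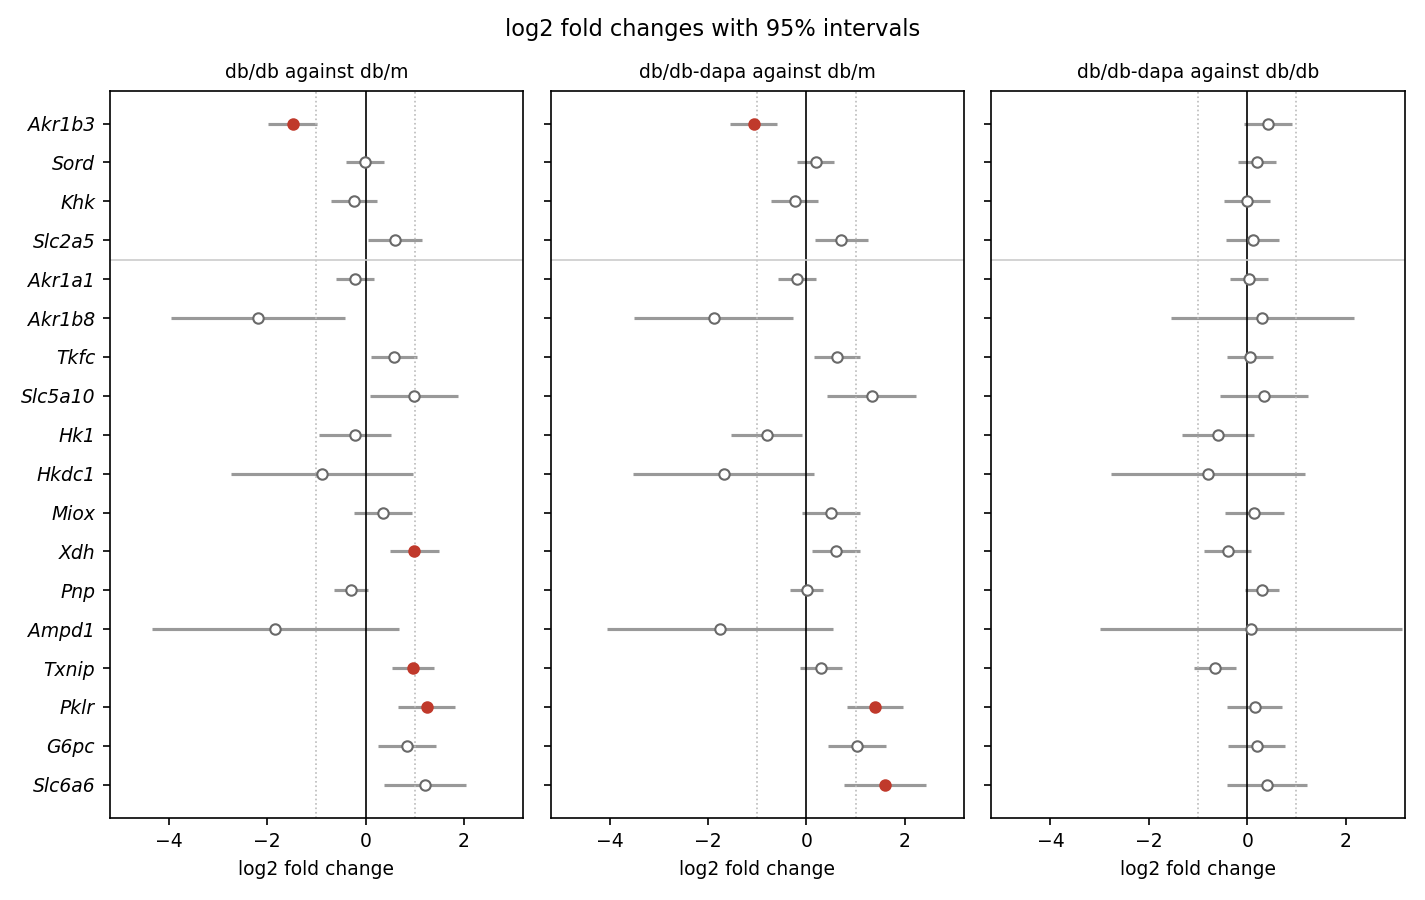
log2 fold changes (horizontal axes) with 95% intervals from edgeR's fit for the 4 members (above the line) and the named genes of the pathway lists, in the 3 comparisons; red points have an adjusted p under 0.1 and dotted lines mark a 2-fold change. Akr1b3 and Pklr are red in both comparisons with db/m mice, Xdh and Txnip in db/db mice, Slc6a6 in db/db-dapa mice, and no gene for db/db-dapa versus db/db.

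Of the 6 genes in the list of ChREBP and its targets, Pklr was called higher in both diabetic groups, and Txnip had an adjusted p under 0.1 in db/db mice. Pklr, which encodes pyruvate kinase of liver and kidney, was at 27.7, 43.1 and 24.6 CPM in db/m mice, 58.8, 68.2 and 97.8 in db/db mice, and 67.9, 96.4 and 86.4 in db/db-dapa mice. All diabetic mice lay above all db/m mice. It rose by a log2 fold change of 1.24 (standard error 0.26, adjusted p = 0.0583) in db/db mice and by 1.39 (standard error 0.26, adjusted p = 0.0511) in db/db-dapa mice against db/m mice (edgeR's quasi-likelihood test). Of all genes tested, 0.545% and 0.578% were called higher in these comparisons. The call of Pklr in db/db mice was lost without db/m replicate 1 or 3 or db/db replicate 2 or 3 (log2 fold changes 0.99 to 1.31), and when only the 2 groups were fitted (adjusted p = 0.125), and that in db/db-dapa mice without db/m replicate 1 or 3 or db/db-dapa replicate 2 or 3 (1.24 to 1.38). Part of the Pklr transcript matches the opposite strand of Hcn3.

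Txnip, which encodes thioredoxin-interacting protein, an inhibitor of glucose uptake, was at 170, 121 and 157 CPM in db/m mice, 238, 313 and 319 in db/db mice, and 175, 166 and 209 in db/db-dapa mice. The db/db mice lay above both other groups. The log2 fold change against db/m mice was 0.96 in db/db mice (standard error 0.19, adjusted p = 0.0460 by edgeR's quasi-likelihood test), short of the size for a call, and 0.30 in db/db-dapa mice (adjusted p = 0.404). The value for db/db-dapa versus db/db was -0.66 (standard error 0.19, adjusted p = 0.854), and non-overlapping groups were found for 10.2% of all genes there (4.9% higher and 5.29% lower). The adjusted p of Txnip in db/db mice rose to between 0.119 and 0.165 without db/m replicate 1, 2 or 3 or db/db replicate 2, and was 0.141 when only the 2 groups were fitted. Part of the Txnip transcript matches the opposite strand of Gm15441. Of the other genes of the list, G6pc, the most abundant, had log2 fold changes of 0.84 and 1.03 against db/m mice, with adjusted p = 0.205 and 0.122 (edgeR's quasi-likelihood test).

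Breakdown of AMP and purines, which follows the use of ATP by ketohexokinase, had 1 gene past an adjusted p of 0.1. Xdh, the gene of xanthine dehydrogenase, which makes urate, was at 18.7, 23.0 and 13.5 CPM in db/m mice, 29.2, 36.2 and 44.2 in db/db mice, and 26.5, 26.6 and 30.7 in db/db-dapa mice. Its log2 fold change was 0.99 in db/db mice (standard error 0.23, adjusted p = 0.0774 by edgeR's quasi-likelihood test) and 0.59 in db/db-dapa mice (adjusted p = 0.223). With 1 mouse left out, Xdh kept an adjusted p under 0.1 without db/m replicate 2 or db/db replicate 1, while leaving out any of the other 7 mice gave 0.108 to 0.258, and a fit of only the 2 groups gave 0.202. Pnp, a nucleoside phosphorylase and the most abundant gene of the list, had a log2 fold change of -0.29 in db/db mice (adjusted p = 0.446), and Ampd1 had at most 4 counts in each mouse.

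Among genes that respond to tonicity, as Akr1b3 does in the medulla, 1 of 5 genes tested was called, in db/db-dapa mice. Calls for db/db-dapa versus db/m made up 1.05% of all genes tested, with 0.578% called higher. The list had no shared direction. Against db/m mice, fitted levels rose for 2 of the 5 genes and fell for 3 in the db/db group. In the group given dapagliflozin, 3 rose and 2 fell. Slc6a6, the taurine transporter, was at 166, 205 and 122 CPM in db/m mice, 236, 248 and 652 in db/db mice, and 374, 519 and 607 in db/db-dapa mice. In db/db-dapa mice it rose by 1.61 on the log2 scale (standard error 0.38, adjusted p = 0.0998 by edgeR's quasi-likelihood test), at the edge of the threshold, and the value in db/db mice was 1.21 (adjusted p = 0.191), or 0.55 without db/db replicate 3. The call of Slc6a6 was lost without any 1 of the 3 db/m mice, db/db replicate 2, and also without db/db-dapa replicate 2 or 3 (adjusted p 0.101 to 0.375), and also with RLE scaling (0.103) and with a filter of 1 CPM in 3 mice (0.101). Without db/db replicate 3, Slc6a6 was called higher for db/db-dapa versus db/db, at a log2 fold change of 1.06 (adjusted p = 0.0901 by edgeR's quasi-likelihood test), against 0.40 with all mice. The factor Nfat5 and the inositol transporter gene Slc5a3 had log2 fold changes of 0.45 and -0.61 in db/db mice, and these 2 genes were chosen after their values were seen. In the hexokinase list, Hk1 was the most abundant gene with a log2 fold change of -0.21 in db/db mice (adjusted p = 0.808), and Hkdc1 had at most 14 counts in each mouse. Miox, which opens the breakdown of inositol, was the most abundant gene of the inositol and glucuronate-xylulose route, with log2 fold changes of 0.36 and 0.50 against db/m mice (adjusted p = 0.600 and 0.334). In edgeR's test 0 genes of these last 2 lists were called in any comparison, and limma and DESeq2 called 0. With edgeR, 0, 2 and 1 of them had an unadjusted p under 0.05, where all genes tested had 13.7%, 18.2% and 5.19%.

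Over the 8 lists together, 48 genes were tested, of which by edgeR 4 had an adjusted p under 0.1 in db/db and 3 for db/db-dapa versus db/m, or 8.33% and 6.25%. Over all genes tested the shares were 1.67% (0.796% higher and 0.879% lower) and 1.31% (0.751% higher and 0.558% lower). The lists were written with earlier results of these data known, so their shares are a description and not a test. For db/db-dapa versus db/db the lists had 0, and 1 (Slc6a6) without db/db replicate 3. With all mice, 6 of the 48 genes (12.5%) had an unadjusted p under 0.05 there, against 5.19% of all genes tested. DESeq2 put 7, 7 and 0 of the 48 genes at an adjusted p under 0.1 in the 3 comparisons, and limma 4, 3 and 0. Without db/db replicate 3, edgeR gave 3 for db/db versus db/m and 10 for db/db-dapa versus db/m.

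The summed level of late proximal tubule markers was lower in each mouse of both diabetic groups. Summed over 8 markers, the late segment (S3) was at 28358 to 40007 CPM in db/m, 2173 to 4961 in db/db mice and 5272 to 9324 in db/db-dapa mice. Most of this sum was Kap, a kidney gene under androgen control. Of the 8 markers, 4 and 3 were called lower for db/db versus db/m and for db/db-dapa versus db/m, against 0.699% and 0.475% of all genes tested. In each of these comparisons 7 of the 8 had a lower fitted level and 1 a higher one (log2 fold change 0.38 and 0.94). In contrast, 6 markers of the early segments summed to 2960 to 4561 CPM in db/m, 4789 to 6536 in db/db mice and 5773 to 7177 in db/db-dapa mice, and none of these was called. Each of the diabetic mice was thus below the db/m mice in the sum of the late markers, as in Akr1b3, and above them in the sum of the early markers, as in Slc2a5. Whether segments differ in their share of the sorted cells was not tested. Principal cell markers, from a part of the nephron where aldose reductase is also expressed, summed to 216 to 698 CPM in db/m, 231 to 451 in db/db mice and 133 to 242 in db/db-dapa mice. All 4 had lower fitted levels in both diabetic groups than in db/m mice. Of the 4, 0 had an unadjusted p under 0.05 in db/db mice and 3 in db/db-dapa mice, where all genes tested had 13.7% and 18.2%. Their part in the level of Akr1b3 was not tested.

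**Figure D5:**
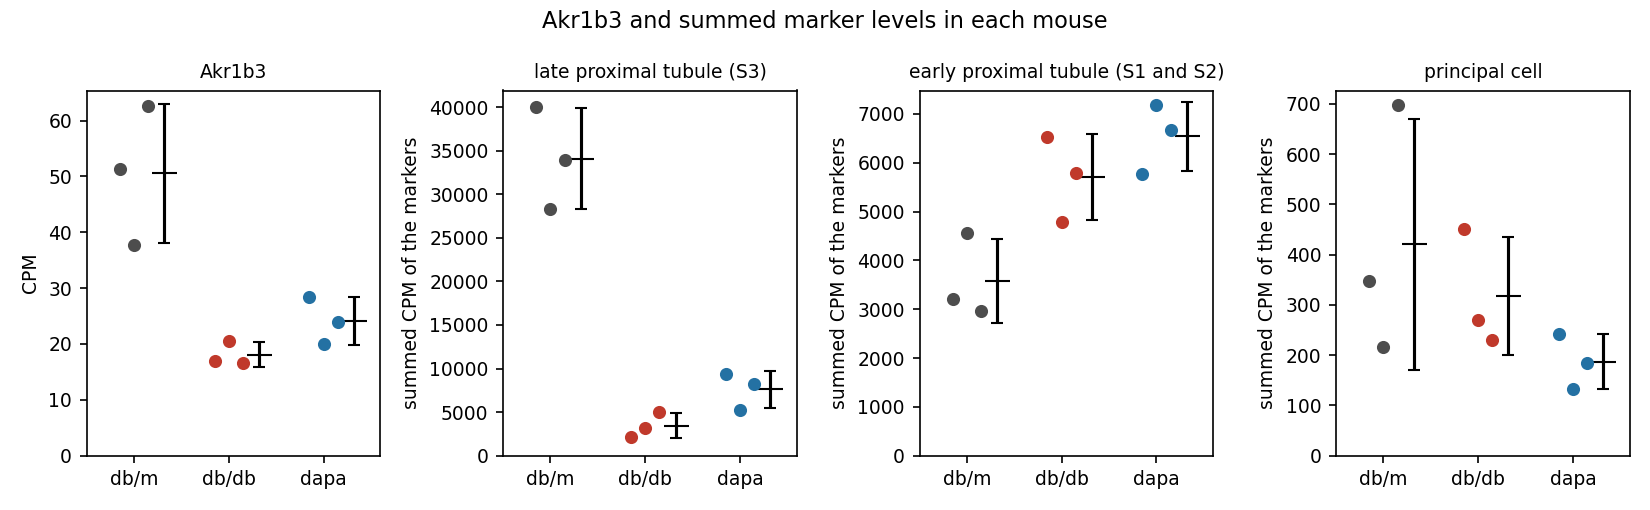
Akr1b3 (CPM) and the summed CPM of markers of the late (S3) and early (S1 and S2) proximal tubule and of the principal cell in each mouse (points; means with SD of 3 mice beside them; dapa, db/db-dapa). The sum of the late markers is lower in all diabetic mice and that of the early markers higher. The principal cell markers sum to 216 to 698 CPM in db/m, 231 to 451 CPM in db/db mice and 133 to 242 CPM in db/db-dapa mice.

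The patterns of the 4 genes over the 9 mice were compared with those of 9134 genes at a mean of 10 CPM or more, as a description without a test. Libraries, groups and depth are shared by all points. Apart from Gm6644, which has the same values (r = 1), Akr1b3 was most like Ndufaf4 (Pearson's r = 0.98) and Hax1 (0.97). Sord was most like Cryz (r = 0.997), Lonp2 (0.98) and Mlh3 (0.97). Khk was most like Cdk5rap3 (0.96), Cacfd1 (0.94) and Snx21 (0.94), and Slc2a5 most like Herc2 (0.94), Tns3 (0.94) and Ldlrad4 (0.94). Among the 4 genes themselves, r was 0.64 for Akr1b3 with Khk and -0.65 for Akr1b3 with Slc2a5, and between -0.35 and 0.48 for the other pairs.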

How the data were processed

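RNA from sorted tdTomato-positive cells of 9 mice was prepared by the authors as stranded poly(A) libraries and sequenced as single-end reads of 101 bases. The authors mapped reads with TopHat2 2.0.13, Bowtie2 2.2.3 and SAMtools 0.1.19 to mm10 and calculated FPKM with Cufflinks 2.2.1. The deposited table, although named as FPKM, holds estimated counts (90.9% whole numbers), and how the authors made these is not stated. Counts were rounded and fitted with edgeR 4.0.16 in R 4.3.3 (TMM scaling, quasi-likelihood test, 0.3 CPM in at least 2 mice, Benjamini-Hochberg adjustment over 15583 genes), without a replicate block. Groups and replicates follow the labels. Each replicate is taken as 1 mouse, as the paper states. Standard errors were derived from F values.

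limma 3.58.1, DESeq2 1.42.0, other scalings, other filters and left-out mice were alternatives. The test was checked on simulated counts. Members and lists were chosen with earlier results of these data known. Genes named from a list were those with an adjusted p under 0.1, the most abundant and the one that differed most between db/db and db/m mice. A few others are marked as chosen later. A result that this rule named is not reported here. Coordinates and transcripts came from GENCODE M21 (GRCm38), promoters from RefSeq (3 of the 4 members matched), and near copies from blastn (at least 95% identity over 101 bases). Intervals are 95% intervals of the fit.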

Additional observations from a re-analysis of the deposited data

How the results depend on the processing

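Akr1b3 was called for db/db versus db/m under all 19 alternatives that could change it, with log2 fold changes from -1.66 (without db/m replicate 2) to -1.31 (without db/m replicate 3) when mice were left out. For db/db-dapa versus db/m it ranged from -1.24 to -0.89 with mice left out and lost its call without db/m replicate 1 or 3 or db/db-dapa replicate 2 or 3, with adjusted p from 0.214 to 0.364. For values near 0 the sign changed. Sord for db/db versus db/m was 0.094 with library totals only, a setting that moved the median of all genes from 0.02 to 0.13, and -0.10 to 0.074 with mice left out. With mice left out, Khk ranged from -0.37 to 0.019 and from -0.38 to 0.011 against db/m mice, and from -0.12 to 0.061 for db/db-dapa versus db/db, where Slc2a5 ranged from -0.052 to 0.51. Slc2a5 for db/db versus db/m ranged from 0.21 to 0.76. The number of genes called for db/db versus db/m (194, 85 higher and 109 lower) was 363 with DESeq2, 114 when only the 2 groups were fitted and 84 (without db/m replicate 1) to 230 (without db/db replicate 3) with mice left out. With library totals only it was 234, 141 of them higher and 93 lower. For db/db-dapa versus db/m (164) it was 507 with DESeq2, 275 with no filter on low counts, 626 with only the 2 groups and 14 (without db/db-dapa replicate 2) to 662 (without db/db replicate 3) with mice left out. For db/db-dapa versus db/db (0) it was 13 with DESeq2 and 0 to 272 with mice left out, the highest without db/db replicate 3. The replicate block changed no call of the 4 genes (Akr1b3 -1.45 and -1.06, adjusted p = 0.0309 and 0.0943) and gave 185, 167 and 0 called genes. Under the block, Xdh in db/db mice had an adjusted p of 0.135 and Slc6a6 in db/db-dapa mice 0.114. No source says that the numbers pair the mice, and correlations of deviations were -0.32 to 0.56 for the 9 same-numbered pairs and -0.61 to 0.36 for the 18 others. Same-numbered db/db and db/db-dapa mice gave 0.40, -0.16 and 0.56. With 3 mice a group, differences within the intervals given were not excluded.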
